A study of Mus musculus with 27 samples.

Results

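ND1-transduced mouse microglia were compared between day 7 and day 2 after doxycycline. The comparison rested on 6 of the 15 RNA libraries of a series of 27 samples, 3 libraries at each day, taken by their labels, and it covered all genes: 13602 of 24293 listed genes reached 1 FPKM (fragments mapped to a gene, scaled to its transcript length and to the library's mapped fragments) in at least 3 of the 15 RNA libraries and were tested. Primary microglia came from the cortex of C57BL/6 wild-type mice at postnatal day 1. The ND1 cells received lentivirus carrying ND1 together with lentivirus carrying M2rtTA, a doxycycline-dependent activator, and then a neuronal medium of Neurobasal and B27 with the growth factors BDNF, GDNF and NT3; doxycycline was given on a single occasion. Reference levels came from animals of that strain, genotype and age: 3 libraries each of cortical neurons in culture, of control microglia at day 2 and of control microglia at day 7. What ND1 abbreviates, which medium the controls had and how many cells were transduced are not in the labels, nor is whether replicates were separate cultures. Each p-value therefore measures the spread between these libraries, which may be technical.

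Microglia are the resident macrophages of the brain. They depend on signalling through the receptor Csf1r and on the transcription factor PU.1 (Spi1), and they carry the machinery of phagocytosis, antigen presentation and interferon response. Neurogenic basic helix-loop-helix factors such as Neurod1 bind E-box sequences and activate genes of neuronal identity when expressed in other cell types, and the neuronal programme they lead to includes cytoskeletal, vesicle, receptor and channel genes.

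The libraries separated cleanly by day. Across the tested genes, day 2 replicates correlated at 0.975 to 0.982 and day 7 replicates at 0.982 to 0.984, whereas day 2 and day 7 libraries correlated at 0.703 to 0.743 (Pearson's r of log2(FPKM + 1), across genes, which are not independent replicates). The sum of FPKM was 600293 to 618555 at day 2 and 447561 to 461085 at day 7, and the 10 most abundant genes took 14.2 to 14.6% and 7.02 to 7.49% of it. The files hold no read counts, so the depth of each library is unknown. The summed level of 10 microglia markers was 3328 to 3656 FPKM at day 2 and 301.6 to 400.3 FPKM at day 7, and that of 10 neuron markers was 699.5 to 867.9 and 4337 to 4343 FPKM. The microglial label of the cells thus matched their markers at day 2; at day 7 the neuron markers summed to more than the microglia markers in each library. Single genes weigh heavily in these sums: C1qa had a mean of 1850 FPKM at day 2 and Tubb3 of 1987 FPKM at day 7. Among the microglia markers, Tmem119 was under 1 FPKM on both days and Cx3cr1 did not fall (means of 3.00 and 3.08 FPKM). The remaining microglia markers fell, and all 10 neuron markers rose.

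Between day 2 and day 7, 3075 genes rose (22.6% of those tested) and 2867 fell (21.1%), at an adjusted p under 0.05 with a change of at least 1 on the log2(FPKM + 1) scale (limma). That scale, used for all log2 changes here, understates changes of weakly expressed genes. The 3 day 7 libraries all lay above the 3 day 2 libraries for 6771 genes (49.8%) and all below for 5757 (42.3%). The called changes were split 51.8% higher, but 65.7% higher (4383 against 2287) when each library was rescaled to the same FPKM sum, which moved the median of all genes from 0.115 to 0.461. Control microglia, which shared no library with this comparison, had 531 rises (3.9%) and 516 falls (3.79%) between the same days.

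Neurod1, a basic helix-loop-helix factor of neuronal differentiation (mm10 chr2:79452637-79456636), stood at 3073, 3454 and 3337 FPKM in the day 2 libraries and at 36.7, 32.6 and 32.5 FPKM in those of day 7. The groups lay far apart, and Neurod1 had the largest fall of any gene detected in all 6 libraries, by 6.56 on the log2 scale (SE 0.10, limma adjusted p = 1.66e-15). Its means were 1.09 and 1.56 FPKM in control microglia at the 2 days and 6.54 FPKM in neurons, so the day 7 level was still above both. Gene-level values do not separate transcripts of a transduced copy from those of the endogenous gene.

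**Figure D1:**
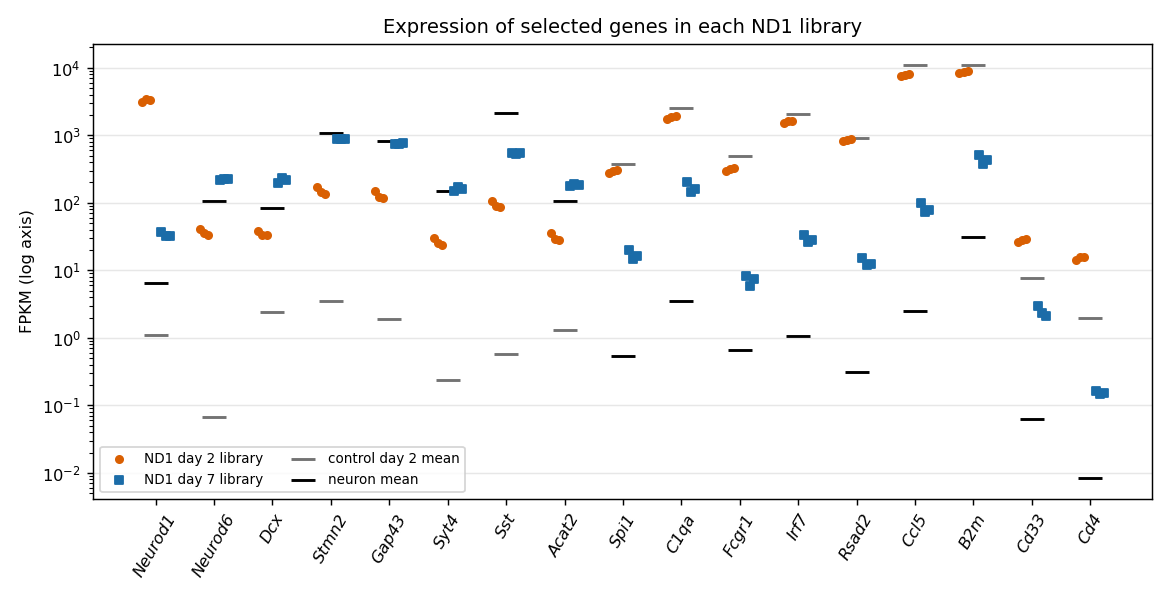
FPKM (log axis) of 17 genes in each of the 3 ND1 day 2 libraries (circles) and 3 ND1 day 7 libraries (squares), with horizontal ticks for the means of control day 2 and neuron libraries. Neurod1 dropped from 3073 to 3454 FPKM down to 32.5 to 36.7 FPKM while the neuronal genes rose. The days did not overlap for any gene shown, nor for most tested genes (49.8% with day 7 above, 42.3% below).

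The neuronal programme rose as a block. Of 26 cytoskeletal and RNA-binding markers of neurons, 24 rose and 0 fell, against 22.6% of all tested genes rising, with a median change of 2.43 beside 0.115 over all tested genes. Dcx, a microtubule-associated protein of migrating neurons, had 38.6, 33.3 and 33.4 FPKM at day 2 and 195, 232 and 215 FPKM at day 7. Dcx rose by 2.58 (SE 0.11, limma adjusted p = 1.71e-11). Stmn2, a regulator of microtubule dynamics in growing axons, went from 171, 143 and 136 to 868, 882 and 871 FPKM, a rise of 2.54 (SE 0.08). Gap43, a growth cone protein, went from 147, 120 and 119 to 737, 733 and 757 FPKM, a rise of 2.52 (SE 0.12), and Dpysl3, a collapsin response mediator, rose by 2.53 (SE 0.11). In each of these 4 genes replicate 1 was the highest day 2 library. The 2 members not called were Nova1 (change 0.97), a splicing regulator, and Nefh (0.57), the heavy neurofilament subunit, at 0.671 to 0.695 FPKM at day 7. The 24 rises reached a median of 114% of the neuron level at day 7, from 20.8% at day 2.

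Of 25 tested neurogenic transcription factors, 21 rose and 2 fell, with a median change of 2.05. Neurod6, a factor of cortical excitatory neurons, had 40.8, 35.1 and 33.7 FPKM at day 2 and 215, 228 and 224 FPKM at day 7, a rise of 2.58 (SE 0.06, limma adjusted p = 5.69e-14). It was near 0 in control microglia, at 0.0664 and 0.1 FPKM on the 2 days. Sox11, a factor of immature neurons, rose by 2.47 (SE 0.10), from 13.1 to 15.3 FPKM up to 77.5 to 87.7 FPKM. The falls were Neurod1 itself and St18, a zinc finger factor of the Myt1 family, which went from 2.44 to 2.53 FPKM down to 0.341 to 0.381 FPKM (change -1.36, SE 0.05). At day 7 the risers of this list stood at a median of 192% of the neuron level, and Sox11 had a mean of 15.7 FPKM in neurons.

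Genes of the synapse followed. Among 26 synaptic vesicle and presynaptic genes 25 rose and 0 fell (median change 2.20), and among 22 postsynaptic scaffold and glutamate receptor genes 20 rose and 0 fell (median 2.03). Syt4, a synaptotagmin of secretory vesicles, went from 29.6, 25.2 and 23.7 to 152, 169 and 158 FPKM (2.57, SE 0.08). Snap25, a SNARE protein of vesicle fusion, went from 14, 11.5 and 13.1 to 71.5, 77.0 and 75.3 FPKM (2.45, SE 0.07), while neurons had a mean of 234 FPKM. Dlg2 and Dlg4, scaffolds of the postsynaptic density, rose by 2.46 (SE 0.07) and 2.24 (SE 0.05), Camk2b, a calcium-dependent kinase, by 2.42 (SE 0.07), and Gria2, an AMPA receptor subunit, by 2.34 (SE 0.10). The presynaptic rises reached a median of 56.6% of the neuron level and the postsynaptic rises 85.5%.

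Inhibitory and peptide genes rose as well but stood further below neurons. Of 23 tested genes of GABA synthesis, GABA receptors, interneurons and striatal neurons 17 rose and 0 fell (median change 1.56), and of 18 neuropeptide, granin and processing genes 13 rose and 0 fell (median 1.96). Sst, the peptide somatostatin, had 107, 89.4 and 86.1 FPKM at day 2 and 552, 518 and 538 FPKM at day 7, a rise of 2.5 (SE 0.12), beside a mean of 2101 FPKM in neurons. The GABA receptor subunit Gabra2 rose by 2.49 (SE 0.10). The granin-processing chaperone Scg5 rose by 2.49 (SE 0.12) and the secretogranin Scg3 by 2.35 (SE 0.08). The rises of these lists reached medians of 42.2% and 35.8% of the neuron level. Npy, a peptide of interneurons, was an exception named after its values were seen: it had 61.8 to 72.3 FPKM at day 2 and 62.2 to 69.5 FPKM at day 7, and 61.7 and 110 FPKM (means) in control microglia.

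Among 19 voltage-gated channel genes 15 rose and 0 fell (median 1.62), among them the sodium channel subunit Scn3b, by 2.26 (SE 0.08). Of 15 genes of axonal transport 13 rose (median 2.01), led by the kinesin Kif5c (2.43, SE 0.09) and the dynein intermediate chain Dync1i1 (2.42, SE 0.08); the broadly expressed motor genes Kif5b and Dync1h1 were not called (0.15 and 0.13). Of 16 neuronal splicing regulators and subunits of the BAF chromatin remodeller that mark neurons, 14 rose (median 2.15), including Actl6b, the neuronal BAF actin-related subunit (from 18.8, 16.1 and 16.0 to 95.1, 93.3 and 93.1 FPKM; 2.40, SE 0.06), and the splicing factor Rbfox1 (2.43, SE 0.07).

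Of 24 axon guidance genes 19 rose and 1 fell (median 1.73). The ephrin ligand Efnb2 rose by 2.30 (SE 0.09), the Slit receptor Robo2 by 2.28 (SE 0.08) and the ephrin receptor Epha4 by 2.24 (SE 0.05). Nrp2, a semaphorin and VEGF co-receptor, went the other way, from 70.5, 75.8 and 76.1 to 7.66, 6.52 and 7.03 FPKM (-3.22, SE 0.07); control microglia had means of 76.9 and 64.6 FPKM. Among 8 tested neurotrophin and GDNF receptors and ligands, whose ligands BDNF, GDNF and NT3 were in the medium, 3 rose: the receptors Ntrk2 (2.25, SE 0.08) and Ntrk3 (2.09, SE 0.07) and the ligand Ntf3 (2.02, SE 0.07). That count was 8 with a pseudocount of 0.1 and 5 with rescaled sums, while 22.6% of all tested genes rose at the main setting.

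Genes of cholesterol synthesis rose in full: all 21 tested members were called, and 0 were called in control microglia in either direction. Of all tested genes, 22.6% rose in ND1 cells, and 3.9% rose and 3.79% fell in control cells. Acat2, a cytosolic acetyl-CoA acetyltransferase at the start of the pathway, had 35.7, 29.3 and 28.1 FPKM at day 2 and 179, 187 and 182 FPKM at day 7 (2.53, SE 0.09, limma adjusted p = 1.73e-12). Idi1, an isoprenoid isomerase, rose by 2.51 (SE 0.06), the HMG-CoA synthase Hmgcs1 by 2.44 (SE 0.06) and the farnesyl diphosphate synthase Fdps by 2.40 (SE 0.10). The smallest change in the list was 1.08 and its median 1.91. At day 7 the group stood at a median of 111% of the neuron level.

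**Figure D2:**
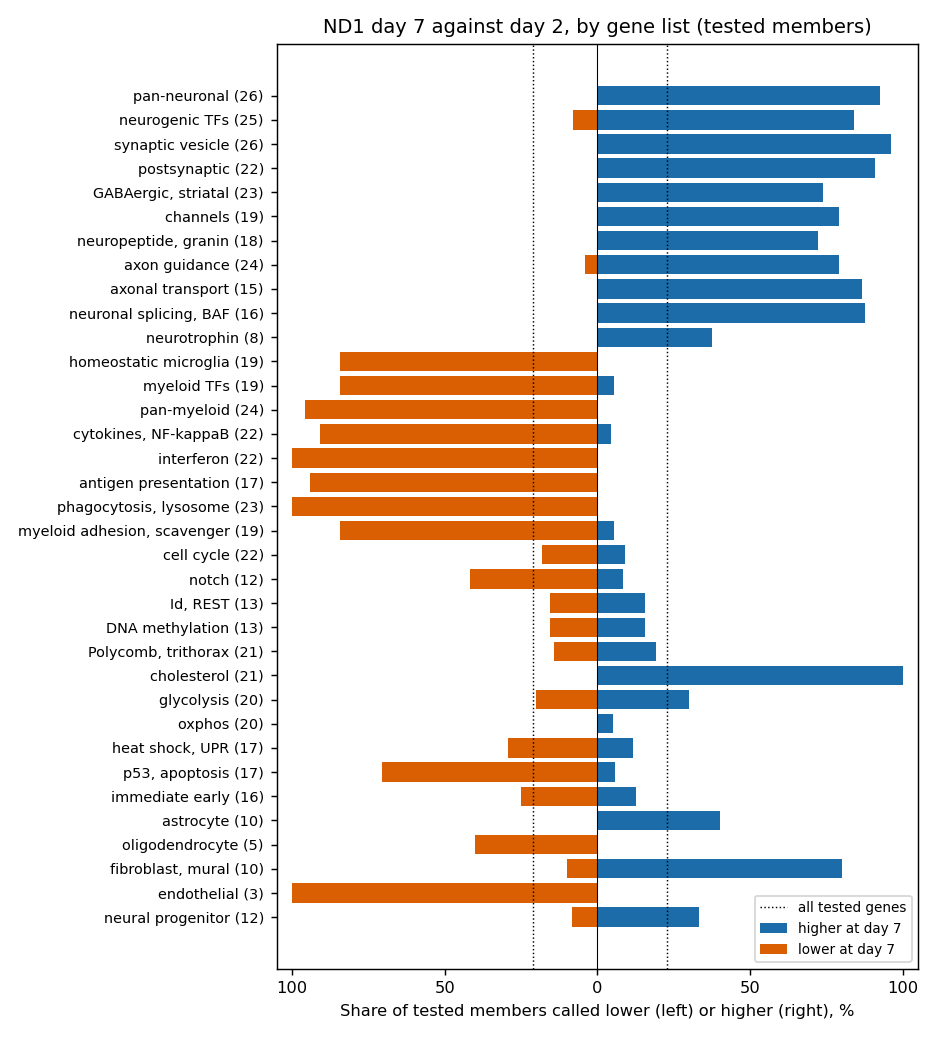
Share of the tested members of each of the 35 gene lists that were called higher (right, blue) or lower (left, orange) at ND1 day 7 than at day 2, in percent, with the number tested in brackets and dotted lines at 22.6% and 21.1% for all tested genes. Neuronal and cholesterol lists extend to the right, and the myeloid, interferon, antigen presentation and lysosome lists to the left.

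The myeloid genes fell. All 23 tested members of the phagocytosis and lysosome list and 23 of 24 pan-myeloid markers fell, against 21.1% of all tested genes, with median changes of -3.37 and -3.61. Fcgr1, the high-affinity IgG receptor, had 297, 319 and 324 FPKM at day 2 and 8.19, 5.92 and 7.39 FPKM at day 7 (-5.27, SE 0.09, limma adjusted p = 1.93e-15). Lyz2, lysozyme, went from 4664, 4905 and 5005 to 275, 202 and 235 FPKM (-4.36, SE 0.09), and Cyba, a subunit of the phagocyte oxidase, fell by 4.59 (SE 0.10). The lysosomal glycoprotein Gpnmb fell by 4.46 (SE 0.09), the granulin precursor Grn by 4.38 (SE 0.08) and the protease Ctsz by 4.33 (SE 0.09). In all of these the days were far apart, and replicate 1 was the highest day 7 library. The exception among pan-myeloid markers, Coro1a, an actin-binding coronin, was not called (0.46); it had 66.7 FPKM (mean) in neurons. Lipa, lysosomal acid lipase, had 425, 439 and 450 FPKM at day 2 and 45.2, 35.7 and a listed 0 FPKM at day 7. Without the third day 7 replicate its change was still -3.415, but its call was lost (limma adjusted p = 0.111). The spread behind that p-value is estimated over all groups, not the ND1 libraries alone.

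Of 19 tested homeostatic microglia markers 16 fell and 0 rose (median -2.83), whereas 6 rose in control microglia, where 3.9% of all tested genes rose. The complement gene C1qa had 1751, 1885 and 1915 FPKM at day 2 and 202, 143 and 161 FPKM at day 7 (-3.46, SE 0.10). Selplg, a selectin ligand, fell by 4.20 (SE 0.06), and Tyrobp, the adaptor of Trem2, by 3.62 (SE 0.11). Cx3cr1, the fractalkine receptor, was chosen after its values were seen: it had 2.82, 2.87 and 3.30 FPKM at day 2 and 3.03, 3.18 and 3.03 FPKM at day 7 and was not called, while its control means were 1.61 and 12.5 FPKM.

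Of 19 myeloid transcription factors 16 fell and 1 rose (median -2.71). Spi1 (PU.1) went from 275, 294 and 300 to 20.3, 14.7 and 16.4 FPKM (-4.02, SE 0.08), beside control means of 369 and 316 FPKM. Irf1, an interferon regulatory factor, fell by 3.86 (SE 0.07) and Tfec, a factor of macrophages, by 3.75 (SE 0.06). The riser was Mef2c, which is used by both microglia and neurons: 27.5, 25.5 and 24.6 FPKM became 128, 146 and 135 FPKM (2.35, SE 0.08), with 87.3 FPKM (mean) in neurons.

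Of the 35 lists the interferon-stimulated genes had the lowest median. All 22 interferon-stimulated genes fell, by at least 2.90, with a median of -4.65, and 20 of 22 cytokine, chemokine and NF-kappaB target genes fell (median -3.38). Ccl5, a chemokine for T cells, had 7467, 7680 and 8000 FPKM at day 2 and 97.6, 72.5 and 78.1 FPKM at day 7 (-6.54, SE 0.09, limma adjusted p = 5.25e-16). Irf7, the interferon amplifier, went from 1518, 1616 and 1637 to 33.8, 26.1 and 28.0 FPKM (-5.72, SE 0.07), and Rsad2, the antiviral enzyme viperin, from 819, 850 and 881 to 15.2, 12 and 12.5 FPKM (-5.91, SE 0.07). Isg15, a ubiquitin-like modifier, fell by 5.44 (SE 0.11) and Mx1, a GTPase, by 5.40 (SE 0.07). Control microglia also lost part of this signal: 11 of the 22 interferon genes and 14 of the 22 cytokine genes fell there too, against 3.79% of all tested genes. The median control changes of these lists were -0.97 and -1.48. In ND1 cells at day 7 the interferon genes that fell stood at a median of 5.17% of the control day 7 level. The pan-myeloid falls stood at 5.17% and the homeostatic falls at 5.44%. The member against the trend was the neutrophil chemokine Cxcl1, which rose from 1.71 to 2.06 FPKM up to 9.23 to 10.7 FPKM (1.96, SE 0.15).

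Antigen presentation fell in 16 of 17 tested genes (median -3.23). The class I heavy chain H2-K1 fell by 4.63 (SE 0.08), and its partner B2m went from 8225, 8734 and 9063 to 510, 371 and 423 FPKM (-4.33, SE 0.10). The peptide loading genes Tapbp and Tap1 fell by 4.21 (SE 0.06) and 4.20 (SE 0.05). Among 19 adhesion, matrix and scavenger receptor genes 16 fell and 1 rose (median -2.28): the scavenger receptor Msr1 fell by 4.52 (SE 0.06) and osteopontin, Spp1, by 4.51 (SE 0.06), while fibronectin, Fn1, rose from 5.94 to 6.04 FPKM up to 13.7 to 14.2 FPKM (1.10, SE 0.19). In these bulk libraries, fewer cells of a type and less RNA per cell cannot be told apart.

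Promoters of genes that fell, 5 of the interferon list together with Gbp2 and Phf11b, are shown because the core of the interferon-stimulated response element (GAAA, any 2 bases, then GAAA, searched on both strands) recurs in them; 1 promoter of a gene that rose stands last. The capitals mark 1 match in each sequence, read 5′ to 3′ on the gene's strand and ending before the annotated start (RefSeq, GRCm38.p6).
Rsad2 (chr12:26456538-26456597, minus strand): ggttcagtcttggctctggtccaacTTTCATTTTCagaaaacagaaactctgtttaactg
Gbp2 (chr3:142620579-142620638, plus strand): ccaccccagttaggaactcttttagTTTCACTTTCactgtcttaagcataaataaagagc
Phf11b (chr14:59341346-59341405, minus strand): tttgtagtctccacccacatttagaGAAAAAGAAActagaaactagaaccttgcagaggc
Ifit1 (chr19:34640779-34640838, plus strand): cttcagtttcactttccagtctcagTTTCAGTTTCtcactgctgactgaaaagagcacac
Isg15 (chr4:156200850-156200909, minus strand): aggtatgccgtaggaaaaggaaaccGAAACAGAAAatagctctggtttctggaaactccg
Oas1a (chr5:120907526-120907564, minus strand): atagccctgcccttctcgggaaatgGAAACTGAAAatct
Stat2 (chr10:128270251-128270310, plus strand): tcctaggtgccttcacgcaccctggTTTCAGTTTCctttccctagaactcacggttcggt
Gpm6a, a rise (chr8:54779338-54779397, plus strand): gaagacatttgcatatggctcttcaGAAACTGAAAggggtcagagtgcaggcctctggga

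In the window from 250 bases before to 50 bases after the start, this core was in 9 of the 16 interferon-list promoters in the table (56.2%), in 14.3% of promoters of genes that fell by log2 3 or more, in 6.07% of all falls, 1.77% of rises, 2.69% of genes not called and 3.49% of all 27025 promoters of the table. The match lies 120 to 111 bases before the start of Rsad2 and 14 to 5 bases before that of Oas1a. Ifit1 holds 2 matches and Isg15 holds 3 in the window, while Irf7 (-5.72) and Ccl6 (-5.92) hold 0. Gpm6a, a neuronal membrane glycoprotein that rose by 2.60 (SE 0.07), holds 1 as well. A core of PU.1 sites, GAGGAAG on either strand, was in 17.2% of falls, 12.1% of rises, 12.8% of genes not called, 13.6% of all tested genes and 13.5% of all promoters of the table. The E-boxes CAGATG (on either strand) and CAGCTG (its own complement), one or the other, were in 26.1% of rises, 30.0% of falls, 22.1% of genes not called, 24.7% of all tested genes and 30.4% of all promoters of the table. The PU.1 core in the Neurod1 promoter and the E-box of Nsg2, a neuronal vesicle protein with a listed 0 in 1 day 2 library, are shown for comparison.
Neurod1 (chr2:79456829-79456885, minus strand): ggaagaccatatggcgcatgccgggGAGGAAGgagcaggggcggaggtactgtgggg
Nsg2 (chr11:32000337-32000392, plus strand): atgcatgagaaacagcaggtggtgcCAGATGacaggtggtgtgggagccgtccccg

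These are matches of letters, and 10633 tested genes had a promoter in the table. Only the first listed start of each gene was used, although 4163 genes of the table have several. Bisulfite data came from a single library each of control and ND1-transduced cells, the latter titled iN, with no day in the labels. There the median methylation of the same windows was 1.6% (control) and 1.59% (ND1) for genes that rose and 1.19% and 1.21% for genes that fell; coverage is unknown. Of 10043 windows with at least 3 CpGs measured, 2 were lower and 5 higher by 20 percentage points or more in the ND1 library.

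Rises and falls differed in how far they went. Among 5885 genes with at least 10 FPKM at day 7 and a value above 0 in all 6 libraries, 964 were at least 4 times higher than at day 2, 668 at least 5 times, 56 at least 6 times and 1 at least 7 times: Smim18, a small membrane protein gene, at a ratio of 7.01. At 8 times the count was 0. These limits are for FPKM as deposited. The FPKM sums were lower at day 7, so rescaling to the same sum would raise each rise and lessen each fall counted here. The limits were not recomputed with rescaled sums. The 12 largest rises chosen by size included Pkia, an inhibitor of protein kinase A (from 27.1, 24.3 and 25.9 to 152, 178 and 161 FPKM; 2.62, SE 0.07), Nrep (2.60, SE 0.11), the noncoding RNA Pantr1 (2.55, SE 0.17) and the kinase Dclk1 (2.53, SE 0.08). Among 6033 genes with at least 10 FPKM at day 2, by contrast, 1221 were at least 4 times lower at day 7, 593 at least 10 times, 202 at least 20 times and 43 at least 50 times lower. On the log2(FPKM + 1) scale the deepest falls after Neurod1 and Ccl5 were Irg1, the itaconate-producing enzyme of activated macrophages (from 173, 170 and 166 to 1.06, 1.04 and 1.07 FPKM; -6.37, SE 0.05), the membrane protein gene Ms4a4c (-6.21, SE 0.08), the class I-like gene H2-M2 (-5.98, SE 0.09) and the chemokine Ccl6 (-5.92, SE 0.12).

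**Figure D3:**
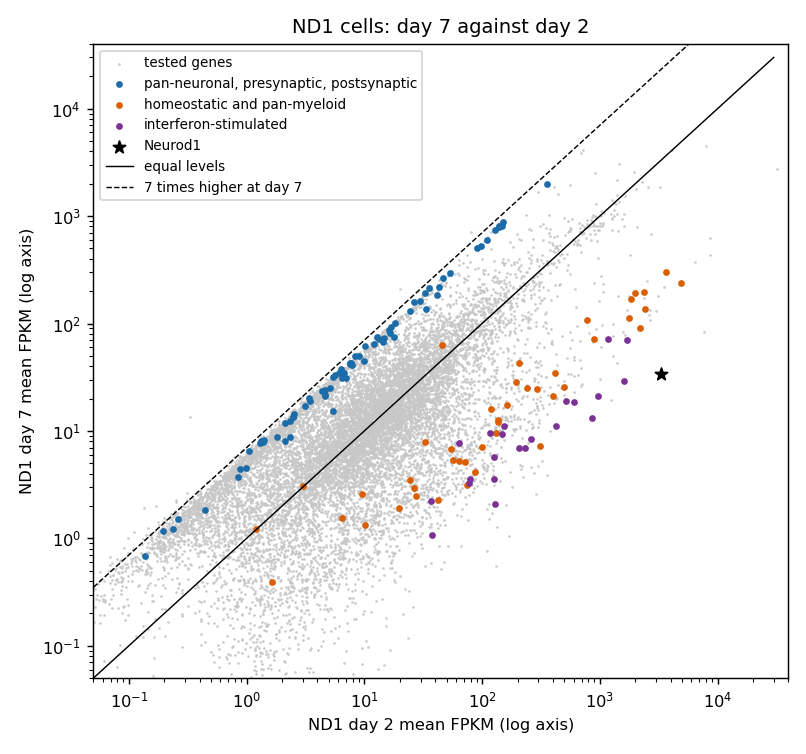
Mean FPKM of each tested gene at ND1 day 2 (x) and ND1 day 7 (y), both on log axes, with 178 genes at or below 0.05 FPKM on a day left out; the solid line marks equal levels and the dashed line a level 7 times higher at day 7. Neuronal genes lie along a band just below the dashed line over the whole range, whereas the falls spread widely and the star marks Neurod1 at 3288 FPKM (x) and 33.9 FPKM (y).

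Genes with control levels far below their ND1 day 7 level had day 2 to day 7 ratios in a narrow range. In 155 genes with at least 10 FPKM at day 7 and a control mean of at most 1% of that on both days (small RNA and unnamed gene models left out; Actr3, an actin-related protein of all cells, enters through control values that are all listed at 0), the day 2 level was a median of 17.6% of the day 7 level, with quartiles of 16.9 and 18%, and 151 genes (97.4%) lay between 15 and 20%. Because the day 7 level chose these genes, the 155 rises among them are no finding. The control limit is relative: Tubb3 passed it with means of 12.7 and 5.17 FPKM in control microglia at the days. The shares use FPKM as deposited, and rescaling to the same sum would lower them. The day 2 libraries differed by a common factor: their medians were 19.9, 16.8 and 15.8% of the day 7 mean, and replicate 1 was the highest of the 3 in 150 of 154 genes (Actr3, with 2 listed zeros, left out). Genes above the band were few. Cck, the peptide cholecystokinin, had 23.8, 24.0 and 19.8 FPKM at day 2, 34.2% of its day 7 level, and Hpca, the calcium sensor hippocalcin, stood at 22.4%. These 2 were chosen after their values were seen. By list, the rises had day 2 levels with medians of 17.9% (neuronal markers), 18.4% (neurogenic factors), 18.8% (presynaptic), 18.3% (postsynaptic) and 25% (cholesterol) of day 7. The summed neuron markers moved with the 155 genes between day 2 libraries, but they share members with them, such as Tubb3 and Gap43. The part of the number of neuronal cells in the day 2 to day 7 ratio was not tested.

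Falling genes with neuron levels far below ND1 day 2 had no single ratio to day 2. Against control cells of the same day they had nearly one. In 264 genes with at least 50 FPKM at ND1 day 2 and a neuron mean of at most 1% of that, the day 7 level was a median of 5.32% of the day 2 level (quartiles 3.97 and 7.43%) and 5.43% of the control day 7 level (4.62 and 6.62%). Split by what control microglia did, the 58 genes that fell in control stood at 2.42% of their day 2 level, the 200 not called there at 6.16% and the 6 that rose there at 16.2%. Against control day 7 the same groups stood at 6.18, 5.31 and 5.12%. Because the day 2 and neuron levels chose these genes, the 264 falls among them are no finding. By list, the falls stood at medians of 5.17% (pan-myeloid), 11.5% (cytokine and NF-kappaB), 23.3% (p53 and apoptosis) and 45.7% (Polycomb and trithorax) of control day 7. All these shares use FPKM as deposited and would be higher with rescaled sums. Replicate 1 was the highest day 7 library in 257 of the 264 genes, with library medians of 6.18, 4.70 and 5.17% of day 2. The summed microglia markers of the same libraries ranged from 301.6 to 400.3 FPKM, and their part in these residual levels was not tested.

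**Figure D4:**
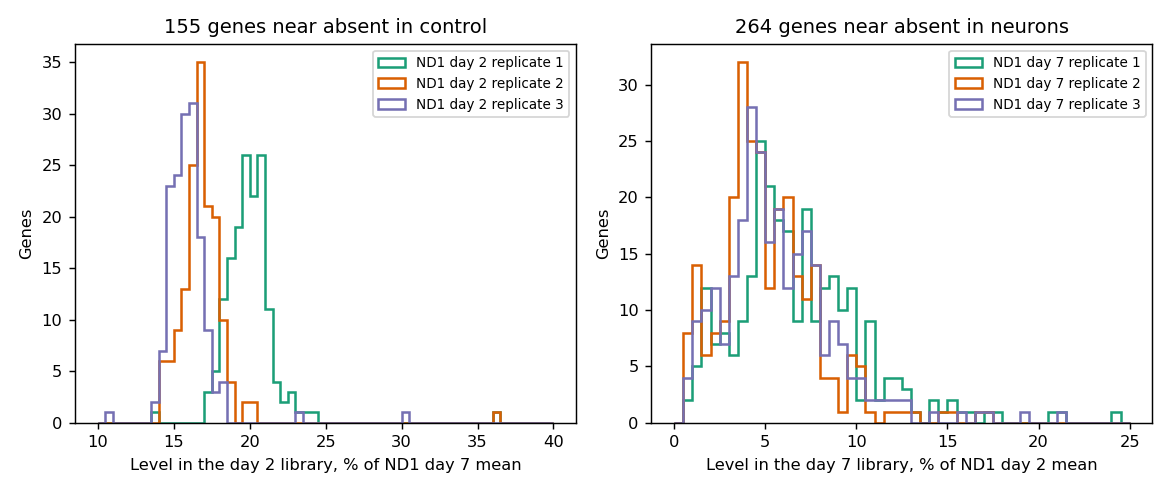
Left, the level of each of 155 genes in each day 2 library, in percent of the day 7 mean, as a histogram of genes. The control means of these genes were at most 1% of the day 7 mean. Right, the level of each of 264 genes in each day 7 library, in percent of the day 2 mean, likewise. The neuron means of these genes were at most 1% of the day 2 mean. On the left 3 of 465 values lie outside the axis. Replicate 1 is shifted to higher values in both panels, and the left distributions are narrow.

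Control microglia were compared between day 2 and day 7 in the same way. Their medium is not in the labels, so effects of ND1 and of the medium cannot be told apart. Of the 3075 genes that rose in ND1 cells, 179 also rose in control cells (5.82% of the ND1 rises and 33.7% of the control rises) and 18 fell there (0.585% and 3.49%). Of the 2867 ND1 falls, 383 also fell in control cells (13.4% of the ND1 falls and 74.2% of the control falls) and 94 rose there (3.28% and 17.7%). The change between the days was more positive in ND1 than in control cells for 2790 genes (20.5%) and more negative for 2826 (20.8%), tested as the difference of the changes (limma, same thresholds).

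Genes that went opposite ways included both lineage sets. Tubb3, the neuronal beta-tubulin, had 409, 335 and 326 FPKM at ND1 day 2 and 2031, 1958 and 1974 FPKM at day 7 (2.48, SE 0.12), and fell in control cells from 12.7 to 5.17 FPKM (means; -1.17, SE 0.12). Marcksl1, an actin-regulating protein of developing brain, went from 259, 229 and 216 to 1020, 1008 and 1021 FPKM (2.12, SE 0.07) and in control cells from 126 to 42.1 FPKM. Ptbp2, the neuronal splicing repressor, rose by 1.87 (SE 0.06) and fell in control cells by 1.17. In the other direction, Csf1r, the receptor microglia need to survive, had 110, 123 and 125 FPKM at ND1 day 2 and 18.8, 13.7 and 15.3 FPKM at day 7 (-2.84, SE 0.08), and rose in control cells from 150 to 362 FPKM (1.27). P2ry6, a nucleotide receptor for phagocytosis, fell by 2.65 (SE 0.07) and rose in control cells by 1.39. The days did not overlap in ND1 libraries for any of these 5 genes, nor for most tested genes (49.8% with day 7 above, 42.3% below).

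**Figure D5:**
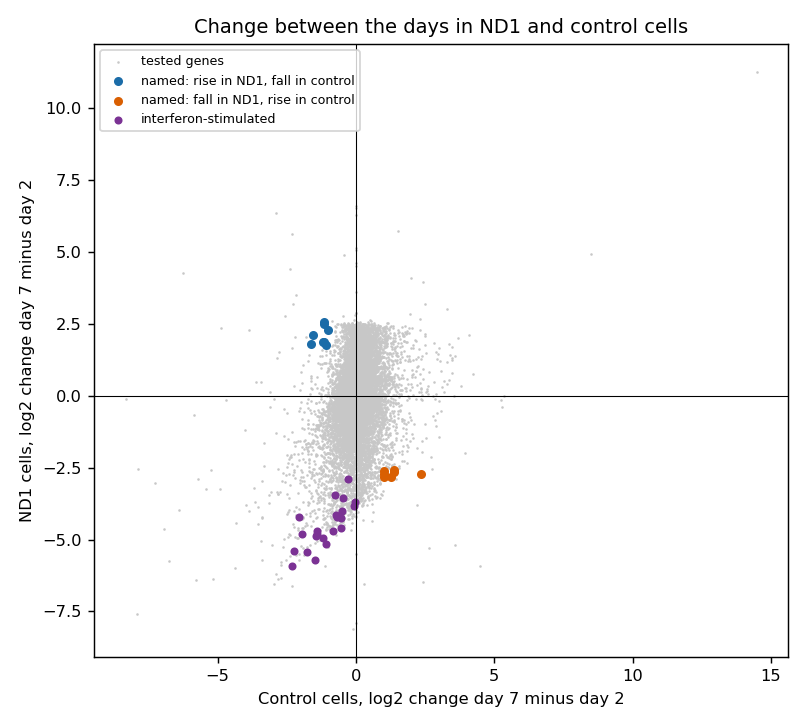
Change from day 2 to day 7 (log2, on log2(FPKM + 1)) in control cells (x) and ND1 cells (y) for each tested gene, with 15 named genes that moved in opposite directions and the interferon-stimulated genes coloured. The interferon genes lie at negative values on both axes and further down for ND1 cells, and the named genes lie in the upper left and lower right of the plot.

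In all, 1237 genes (9.09% of those tested) were called higher at ND1 day 2 than at control day 2. Leaving out small RNA genes, unnamed gene models and altered or duplicated symbols, 29 of them were then lower at ND1 day 7. The 1237 genes and the 21.1% of all tested genes that fell include such symbols, so the sets are not alike. Both steps share the ND1 day 2 libraries. Apart from Neurod1, several of the 29 belong to myeloid cells. Cd33, an inhibitory sialic acid receptor, had 26.6, 28.0 and 28.6 FPKM at ND1 day 2, 3.00, 2.31 and 2.07 FPKM at day 7, and 7.61 FPKM (mean) in control cells at day 2 (-3.06 between the days, SE 0.08). Cd4, the T-cell co-receptor also found on some macrophages, went from 14.2, 15.9 and 15.6 to 0.161, 0.146 and 0.150 FPKM (-3.81, SE 0.06), against 1.97 FPKM in control cells. Kynu, the kynureninase of tryptophan breakdown, went from 31.2, 32.9 and 37.2 to 2.61, 1.99 and 1.91 FPKM (-3.46, SE 0.09). Ivl, the envelope protein involucrin of keratinocytes, and Nkpd1 were also on the list, at 8.86 to 9.89 and 5.17 to 5.55 FPKM at day 2 and under 0.5 FPKM at day 7. The converse, lower at ND1 day 2 than in control (0.618% of tested genes) and then a rise, applied to 1 gene, counted with the same symbols left out.

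Markers of each other cell type summed to less than the microglia markers and the neuron markers on both ND1 days. Of these other markers, 0 were at 0 in all 3 libraries of either ND1 day. The astrocyte, fibroblast and mural, and progenitor sums rose between the days, and the oligodendrocyte and endothelial sums fell. The counts below stand beside 22.6% of all tested genes rising and 21.1% falling in ND1 cells, and 3.9% rising in control cells. The summed level of 8 astrocyte markers was 18.3 to 20.3 FPKM at day 2 and 28.4 to 29.9 FPKM at day 7, below the 67.2 to 70.9 FPKM of control day 7; 4 of 10 tested astrocyte genes rose in ND1 cells and 7 in control cells. Fibroblast and mural markers summed to 6.92 to 8.38 FPKM at day 2 and 36.6 to 39.6 FPKM at day 7, with 8 of 10 tested genes rising and 1, the intermediate filament Vim (-3.31, SE 0.06), falling; 6 of the 10 rose in control cells. Acta2, smooth muscle actin, went from 3.22, 2.98 and 2.39 to 15.7, 13.6 and 14.4 FPKM (2.01, SE 0.08) and in control cells from 0.721 to 21.0 FPKM. The rises of this list were 5 with a filter of 5 FPKM. All 3 tested endothelial genes fell, Kdr from 15.7, 16.5 and 16.8 to 0.830, 0.666 and 0.553 FPKM (-3.37, SE 0.06). Defining markers of endothelial cells, Pecam1, Cdh5, Cldn5 and Tek, were under 1 FPKM on both days. Neural progenitor markers summed to 37.3 to 44.7 and 186.5 to 188.4 FPKM, mostly Fabp7 (36.6, 35.0 and 29.2, then 169, 168 and 167 FPKM; 2.29, SE 0.11), which neurons had at 114 FPKM; 4 of 12 tested progenitor genes rose, or 9 with a pseudocount of 0.1 or rescaled sums. The part of such cells in the changes above was not tested.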

How the data were processed

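The authors deposited FPKM per gene. The submitters' processing notes name TopHat, Bowtie2, Cufflinks and Cuffdiff, without versions, and the build mm10. For bisulfite libraries, made by post-bisulfite adaptor tagging per the labels' protocols, the authors deposited the fraction methylated at each CpG with no coverage, and which tools made it is not given in the sources used here.

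Of 24293 symbols 24148 matched RefSeq, 1107 through a synonym. log2(FPKM + 1) of the 13602 tested genes was fitted in all 15 RNA libraries (5 group means, 10 residual degrees of freedom) with limma 3.58.1 in R 4.3.3, with an intensity trend and Benjamini-Hochberg adjustment over all tested genes. No 2 libraries were identical. Values of exactly 0 can be failed estimates, so such genes are given library by library.

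Members and the 35 gene lists were chosen with earlier results of these data known. Genes were named by rule: Neurod1; the 12 largest rises and falls whose libraries do not overlap; up to 4 members of each list with the largest change and those against the list's majority; the 10 genes highest at ND1 day 2; 8 rises and 8 falls called opposite in control cells; and the 6 largest and smallest ratios. Some genes that the rule names are not reported here. Any other gene was named after its values were seen, including list members given as not called. Alternatives were pseudocount, filter, scaling, replicate block, trend, library choice and leaving out each library. The chromatin immunoprecipitation samples were not analysed here.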

Additional observations from a re-analysis of the deposited data

Results flagged for a closer look

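The change from day 2 to day 7 differed between ND1 and control cells, by a test of the difference itself (limma, difference of the log2 changes, ND1 minus control), for 15 genes named because they were called in opposite directions. Among genes that rose in ND1 cells and fell in control cells, the difference was 3.72 for Dcx, 3.65 for Tubb3, 3.67 for Marcksl1, 3.43 for Trim46, a tripartite motif protein of axons, 3.31 for Efnb2, 3.05 for Atrnl1, 3.04 for Ptbp2 and 2.85 for Ttc3. Among genes that fell in ND1 cells and rose in control cells, it was -5.06 for Wfdc17, a secreted protein of macrophages, -4.11 for Csf1r, -4.04 for P2ry6, -3.95 for Folr2, a folate receptor of macrophages, -3.81 for Nfam1, -3.76 for the actin-bundling protein Lcp1 and -3.63 for Serinc3. The genes were chosen for this opposition, so the differences describe its size.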

How the results depend on the processing

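Leaving out each ND1 library in turn gave 3028 to 3117 rises and 2844 to 2917 falls, and leaving out each ND1 or control library gave 2756 to 2850 genes with a more positive and 2799 to 2870 with a more negative change than in control cells. Over the other alternatives rises ranged from 2678 (filter of 5 FPKM) to 4383 (rescaled sums) and falls from 2287 (rescaled sums) to 3311 (pseudocount 0.1). Rescaling to the same FPKM sum also gave 4391 genes with a more positive change than in control, against 2790. Another alternative, chosen after seeing the data, set aside the 138 genes with a listed 0 in an ND1 library and at least 10 FPKM in another. It left 3058 rises and 2840 falls. Deviations of same-numbered ND1 libraries from their group means correlated at 0.033, -0.116 and 0.122, and those of differently numbered ones at -0.149 to 0.118. Such values cannot show whether same-numbered libraries came from one culture. With a replicate block the counts were 3075 and 2867, and 2790 and 2827 for the difference from control.

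Of 188 named genes 180 kept their direction and their side of the threshold in each of 15 settings that tested them, and 0 reversed. Actr3, listed at 0 in 2 ND1 libraries and in all control libraries, was not called with the 6 ND1 libraries alone (limma adjusted p = 0.0973) or without the first or the second day 2 replicate, nor Lipa without the third day 7 replicate. Kdm6a (-0.64 with rescaled sums), Sox9, Pqbp1, Mif, Prkar1a and Dnaja1 dropped under an absolute change of 1 in 1 or more settings. Depth is unknown, so no counting limit can be given for low values.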

Other observations

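In lists of general cell function the counts are read against 22.6% of all tested genes rising and 21.1% falling. Of 20 tested genes of nuclear-encoded oxidative phosphorylation 1 rose, Ndufa4, with a list median of 0.383, but 8 with rescaled sums. In glycolysis 6 of 20 rose and 4 fell, near those shares. Pfkm, the muscle-type phosphofructokinase, went from 13.6, 11.9 and 11.2 to 58.7, 59.3 and 59.6 FPKM (2.19, SE 0.06), and the hexokinase Hk2 from 9.70, 10.3 and 10.8 to 1.47, 1.32 and 1.39 FPKM (-2.24, SE 0.07). The lactate dehydrogenase Ldhb rose by 2.19 (SE 0.08) and the lactate exporter Slc16a3 fell by 2.05 (SE 0.07). Of 17 p53 and apoptosis genes 12 fell (median -1.41), with Casp8, the initiator caspase, falling by 3.71 (SE 0.06). Of 17 heat shock and unfolded protein response genes 2 rose and 5 fell, or 3 with rescaled sums. The stress transcription factor Ddit3 fell from 586, 606 and 622 to 36.1, 28.6 and 32.4 FPKM (-4.19, SE 0.07), and Atf3 fell by 4.43 (SE 0.07), while Hsp90aa1 and Hsph1, cytosolic chaperones, rose by 1.51 (SE 0.05) and 1.6 (SE 0.04). Ddit3 and Atf3 also fell in control cells, by 1.68 and 1.05. For the cell cycle, stress, Id and REST, and immediate early lists the median change was between -0.287 and -0.0741 and turned positive, 0.0416 to 0.203, with rescaled sums.

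Among 22 cell cycle genes 2 rose and 4 fell, both below the shares of all tested genes. The cyclin-dependent kinase inhibitor Cdkn1a went from 333, 348 and 361 to 33.5, 30.7 and 30.1 FPKM (-3.43, SE 0.05) and Cdk6 fell by 2.26 (SE 0.12), while Rrm2, a subunit of ribonucleotide reductase, rose by 1.87 (SE 0.10). With a pseudocount of 0.1 the falls were 8. Of 12 Notch pathway genes 5 fell, among them Notch2 (-2.42, SE 0.07), and 1, the ligand Jag2, rose (1.64, SE 0.05); 4 rose with a pseudocount of 0.1 or rescaled sums. Rest, the repressor of neuronal genes, fell from 6.13, 6.96 and 6.53 to 1.71, 1.54 and 1.61 FPKM (-1.53, SE 0.11), and Ptbp1, the splicing repressor that neurons shut off, from 49.6, 50.4 and 51 to 16.1, 14.4 and 14.9 FPKM (-1.67, SE 0.04). Dnmt3a, a de novo DNA methyltransferase, fell by 2.56 (SE 0.06) and also in control cells by 1.57, and the demethylation enzyme Tet1 rose by 1.47 (SE 0.08). In the Polycomb and trithorax list 4 of 21 rose and 3 fell, again below those shares, with Phc1 rising by 1.76 (SE 0.07) and Ezh1 falling by 1.70 (SE 0.04); 7 rose with rescaled sums.

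Fth1, the ferritin heavy chain, was listed at 0 in all day 2 libraries of both ND1 and control cells and, in ND1 cells at day 7, at 2796, 2184 and 2415 FPKM. Nsg2 was listed at 0, 123 and 117 FPKM in day 2 libraries and at 705, 731 and 720 FPKM in those of day 7. Of 14 rises of log2 3 or more, all 14 had an ND1 library listed at 0, and 11 were small RNA genes. In all, 138 genes were at 0 in an ND1 library with at least 10 FPKM in another, and 117 of these were small RNA genes.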
